A study of Mus musculus with 8 samples.

Results

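The genes described here are the 9 cadherins of the mouse desmosome, which are the desmogleins Dsg1a, Dsg1b, Dsg1c, Dsg2, Dsg3 and Dsg4 and the desmocollins Dsc1, Dsc2 and Dsc3, together with plakoglobin (Jup). They were chosen by gene symbol and make up 10 of the 18540 genes in the table. RNA from wound skin was sequenced in 4 control samples (titled con, named control-1, -2, -3 and -5 here) and 4 treated samples (titled shiyan, named Z1C2Z-1, -2, -4 and -5 after the sample names used in the study). According to the methods, control wounds received PBS, and skin of the other group came from mice treated for 15 days with ZCZ. ZCZ is a metal-organic framework carrying ZnO2 and CeO2, and its form Z1C2Z has the higher CeO2 content. The sample titles and the sequencing methods do not say which form was given. That it was Z1C2Z was inferred from sample numbers in a heat map of the study and is uncertain. The stated dose was 100 μg/kg. Full-thickness dorsal wounds of 10 mm had been made in C57BL mice aged 6 weeks and in diabetic db/db mice aged 10 weeks, and the sources used here do not say which of these strains was sequenced or which samples shared a mouse. Each mouse carried a pair of wounds. The methods state that wounds were divided among the groups at random, while the results of the study say this of mice for db/db. Samples of the same or of different groups may thus share a mouse, which the tests do not account for. P-values therefore measure the spread between these samples, which need not be the spread between mice and may be partly technical.

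Desmosomes are the buttons that hold keratinocytes together. Desmogleins and desmocollins span the membrane and bind the cadherins of the next cell, while their tails hold plakoglobin and plakophilins, which in turn hold desmoplakin and, through it, the keratin filaments. The cadherins are worn in layers. In epidermis, Dsg3 and Dsc3 are strongest near the basal layer, Dsg1 and Dsc1 increase towards the surface, Dsg2 is weak and mostly basal or follicular, and Dsg4 is the desmoglein of the hair cortex and of the most superficial epidermis, whose loss gives brittle lanceolate hair.

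Each library held between 28856790 and 38974888 counts. They were scaled for library size to CPM (counts relative to the library's TMM-scaled total, edgeR), and all 10 genes were among the 15147 that passed the low-count filter. The libraries of a group were not alike. On the first principal component, which held 62.2% of the variance of all tested genes, control samples lay between -62.9 and -12.2, and Z1C2Z-5, at -0.291, lay nearer to control-3 than to Z1C2Z-2 (65.7) and Z1C2Z-4 (67.7). No pair of libraries was alike within sampling noise (smallest chi-square 21.7 per degree of freedom), and each counted as 1 sample. Keratinocyte genes were abundant in every sample, with a mean of 2750.0 CPM for Krt14 and 4535.4 CPM for Krt10.

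Of the 10 genes, 2 rose in the Z1C2Z group at an adjusted p under 0.05 (edgeR's quasi-likelihood test, Benjamini-Hochberg adjustment over all genes) and 0 fell. They were Dsg4, with a 6.40-fold change, and Dsg2, with a 1.38-fold change. Among all tested genes 4.28% rose and 3.85% fell by this rule, 8.13% in either direction. These were 648 and 583 genes, and 972 and 385 when libraries were scaled by total counts alone. With an absolute log2 fold change over 1 in addition, 1 of the 10 (Dsg4) was called, against 2.15% of all genes called higher and 1.25% called lower. The groups did not overlap, with every Z1C2Z sample above every control sample, for 3 of the 10 (Dsg1a, Dsg2 and Dsg4), against 8.45% of all genes. In the other direction it was 0 of the 10, against 8.82% of all genes. The median log2 fold change of the 10 was 0.19, and that of all genes was 0.01. An unadjusted p under 0.05 was found for 3 of the 10, against 28.0% of all genes in either direction, and DESeq2 called the same 3 (Dsg1a, Dsg2 and Dsg4) after adjustment. RNA from whole tissue cannot tell fewer cells of a type from less RNA per cell.

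**Figure D1:**
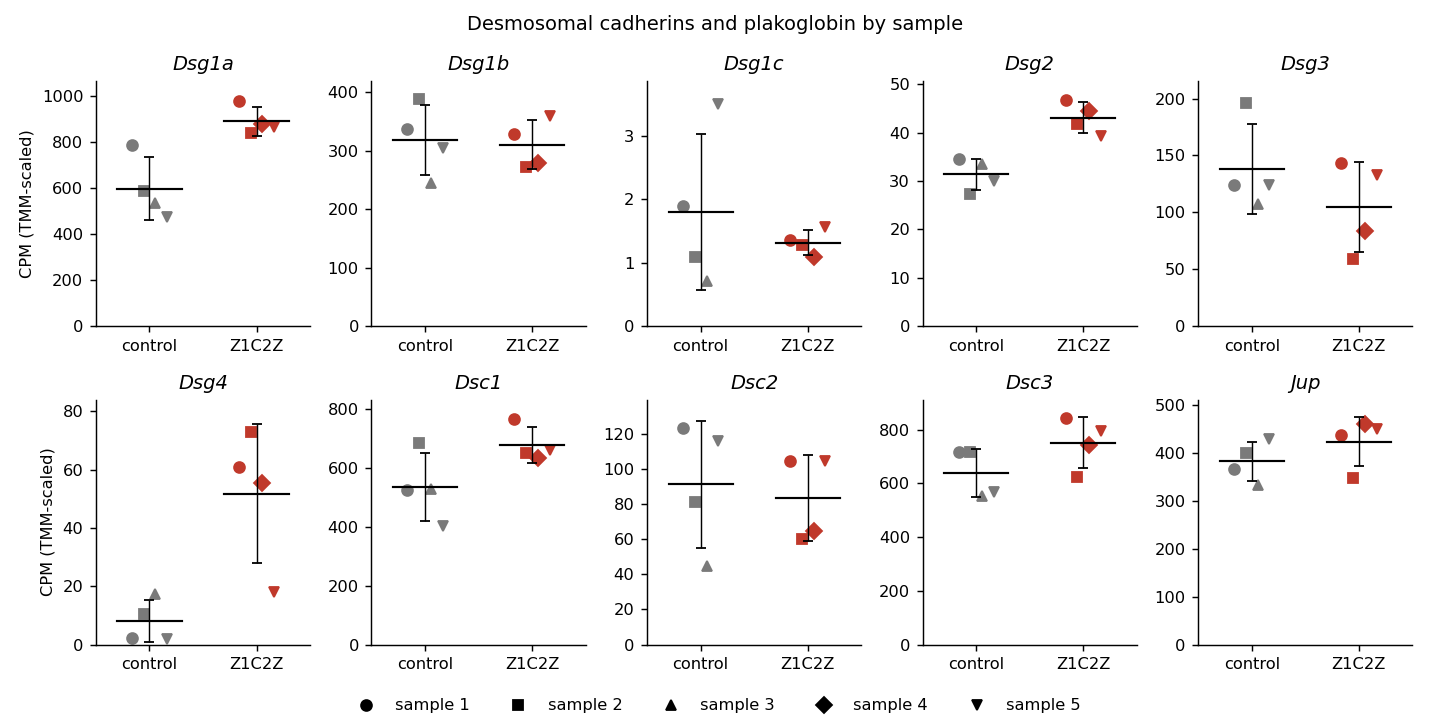
Level of each of the 10 genes in CPM (linear axis from 0), with 1 symbol per sample, the group mean as a horizontal line and the SD as a bar. Every Z1C2Z sample lies above every control sample for Dsg1a, Dsg2 and Dsg4, and the groups overlap for the other 7 genes.

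Dsg4, the desmoglein of the hair shaft, showed the largest change and the largest spread. The control samples gave 65, 383, 625 and 73 counts, which were 2.31, 10.6, 17.2 and 2.06 CPM. The Z1C2Z samples gave 2165, 2816, 2202 and 647 counts, which were 61.1, 73.0, 55.3 and 17.9 CPM. Control-1 and control-5 were low, Z1C2Z-5 was close to control-3, and the groups did not overlap. The mean was 8.05 ± 7.29 CPM in the control group and 51.8 ± 23.8 CPM in the Z1C2Z group (SD, n = 4 each). The log2 fold change was 2.68 with a standard error of 0.71 (adjusted p = 0.0499, edgeR). The exact two-sided permutation test on log2 CPM gave p = 0.0286, the smallest that 4 samples against 4 allow. The adjusted p stood just under the threshold and was over it without Z1C2Z-1 (0.0929), -2 (0.133) or -4 (0.123) or without control-1 (0.0643), -2 (0.0941) or -5 (0.114), with log2 fold changes between 2.35 and 2.84. With a skeletal muscle score as covariate the log2 fold change was 1.73 (adjusted p = 0.166), and without Z1C2Z-2 and Z1C2Z-4 together it was 2.29 (adjusted p = 0.352). The summed level of the score's 8 genes was 3143.5 to 5750.0 CPM in control and 2698.8 to 2944.8 CPM in Z1C2Z samples, without overlap. Fits with this covariate, here and below, therefore cannot tell muscle content apart from the group.

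The hair follicle genes moved with Dsg4. All 15 hair shaft and matrix genes rose (median log2 fold change 3.02), against 4.28% of all tested genes. Among them were the hair keratins Krt85 (2.70, adjusted p = 0.0319, edgeR) and Krt83 (4.76, adjusted p = 0.0399). Like all genes, they were not called without control-5 or without Z1C2Z-1, -2 or -4, where 0 genes rose. For 13 of the 15 the groups did not overlap. The summed level of this list was 102.0, 231.0, 464.0 and 101.0 CPM in the control samples. It was 1524.3, 4028.5, 3837.8 and 535.0 CPM in the Z1C2Z samples. As for Dsg4, control-1 and control-5 were lowest and Z1C2Z-5 was closest to control-3. Of the 7 inner root sheath genes, 5 rose, with a median log2 fold change of 2.48 over the list. Their summed level was between 598.0 and 3657.1 CPM in the control group and between 4470.5 and 14947.3 CPM in the Z1C2Z group. Among all tested genes outside the 10, those whose centred log2 CPM lay closest to Dsg4 over the 8 samples were Padi3 (mean absolute difference 0.135), Tchh (0.174) and Tgm6 (0.209). Padi3 encodes an enzyme that modifies hair follicle proteins, and Tchh encodes trichohyalin, a filler protein of the inner root sheath. Tgm6 encodes an enzyme of the transglutaminase family. Padi3 and Tchh are themselves on the 2 hair lists. The nearest of the other 9 genes was Dsg2, at 1.36. The part of follicle content in the change of Dsg4 was not tested.

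**Figure D2:**
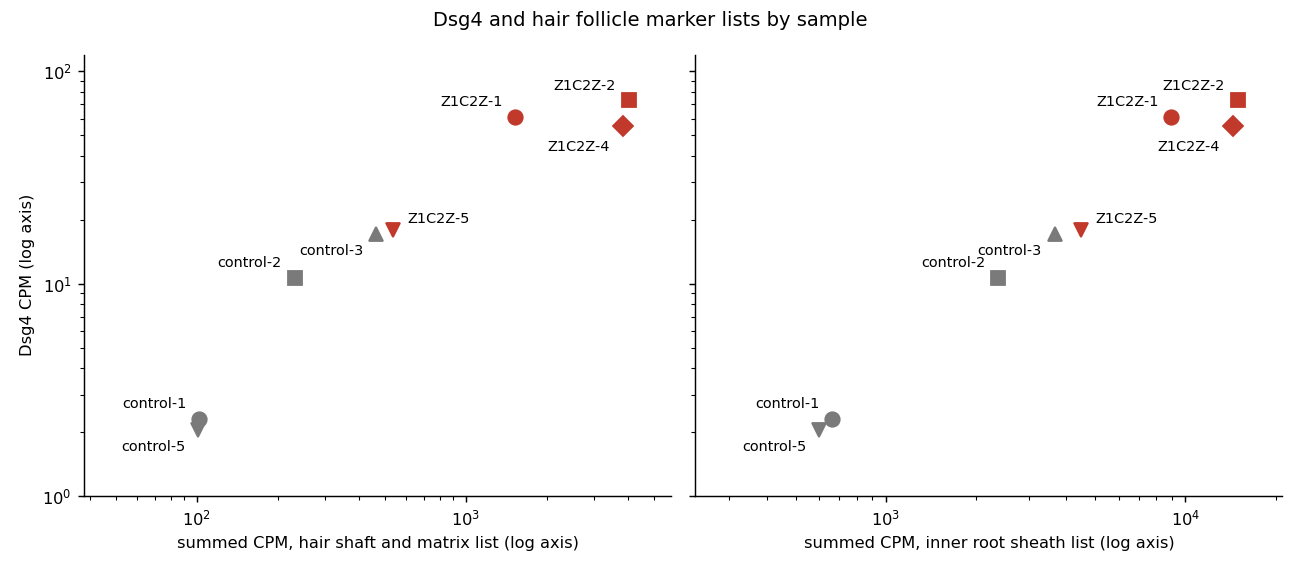
Dsg4 in CPM against the summed CPM of the hair shaft and matrix genes (left) and of the inner root sheath genes (right) in the 8 samples, all on log axes, with control in grey and Z1C2Z in red. Control-1 and control-5 lie lowest, control-3 and Z1C2Z-5 lie next to each other, and Z1C2Z-1, Z1C2Z-2 and Z1C2Z-4 lie highest in both panels.

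Dsg2, a desmoglein of simple epithelia, heart and the follicle, rose with little spread. It measured 34.5, 27.3, 33.5 and 30.0 CPM in the control samples. It measured 46.8, 41.8, 44.5 and 39.4 CPM in the Z1C2Z samples. All Z1C2Z samples were above all control samples, by a small distance. The mean went from 31.4 ± 3.30 to 43.1 ± 3.24 CPM (SD, n = 4 each). On the log2 scale the fold change was 0.46 with a standard error of 0.10 (adjusted p = 0.0348, edgeR, exact permutation p = 0.0286). The adjusted p was over 0.05 without Z1C2Z-1 (0.0753), -2 (0.0935) or -4 (0.105) or without control-2 (0.0713) or -5 (0.092), and also with a skeletal muscle score as covariate (0.0888). In GENCODE's annotation 3.99% of the exonic bases of Dsg2 lie opposite the antisense gene Gm16090, and the strand setting of the counting is not given in the sources used here.

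The genes closest to Dsg2 in pattern over the 8 samples were Hpgd (mean absolute difference 0.0552 in log2 CPM), Gpt (0.0562) and Trp53inp1 (0.0618). Hpgd, which encodes a prostaglandin-degrading enzyme, had a log2 fold change of 0.46 (adjusted p = 0.0322, edgeR). The nearest of the other 9 genes was Dsg1a, at 0.155.

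Dsg1a, Dsg1b and Dsg1c are the mouse copies of Dsg1, the superficial desmoglein that is the autoantigen of pemphigus foliaceus. Dsg1a measured 790.0, 589.8, 533.6 and 476.8 CPM in the control samples. It measured 980.5, 839.6, 878.9 and 865.8 CPM in the Z1C2Z samples. The groups did not overlap, and control-1 came nearest to the treated samples. A log2 fold change of 0.58 was obtained, with a standard error of 0.15 (597.5 ± 136.4 to 891.2 ± 61.8 CPM, SD, n = 4 each, exact permutation p = 0.0286). Its adjusted p of 0.0513 (edgeR) missed the threshold. Over 19 alternatives it ran from 0.00632 (DESeq2) to 0.321 (without Z1C2Z-2 and -4 together) and was under 0.05 in 5, among them the fit without control-1 (0.0266).

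Dsg1b did not follow Dsg1a. It measured 336.8, 388.3, 243.9 and 305.0 CPM in the control samples and 328.6, 272.2, 278.6 and 360.0 CPM in the Z1C2Z samples. The groups overlapped throughout (log2 fold change -0.04, standard error 0.15, adjusted p = 0.888, edgeR). Its direction turned with the scaling, to 0.05 with total counts alone. Dsg1c was the lowest of the 10, with 26 to 124 counts in the control samples and 43 to 56 in the Z1C2Z samples. Its log2 fold change was -0.45 with a standard error of 0.45 (adjusted p = 0.546, edgeR), and it was 0.12 without control-5.

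The 3 copies share sequence, so that reads can be assigned to the wrong one. In GENCODE's transcripts 21.9% of the 100-base windows of Dsg1a also occur in Dsg1b, and 31.6% of those of Dsg1b occur in Dsg1a. Of the windows of Dsg1c, 13.9% occur in another gene. No window of Dsg3, Dsg4, Dsc1, Dsc2, Dsc3 or Jup does. How shared reads were counted is not given in the sources used here, and the contrast between Dsg1a and Dsg1b is uncertain for that reason. With the 3 copies summed before the fit, the log2 fold change was 0.39 (adjusted p = 0.0946, edgeR).

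Dsg3, the basal desmoglein and the autoantigen of pemphigus vulgaris, was lower on average. It measured 123.6, 196.4, 107.6 and 124.0 CPM in the control samples. It measured 143.2, 59.0, 83.9 and 132.4 CPM in the Z1C2Z samples. Z1C2Z-2 and Z1C2Z-4 were below all control samples, while Z1C2Z-1 and Z1C2Z-5 were within their range. Its log2 fold change was -0.40 with a standard error of 0.29 (adjusted p = 0.401, edgeR, exact permutation p = 0.286). Without Z1C2Z-2 and Z1C2Z-4 it was -0.00. Dsg4 was high in both of these samples, and they also had the lowest summed levels of the wound keratins Krt6a, Krt6b, Krt16 and Krt17, at 2319.3 and 2580.3 CPM. Z1C2Z-1 did not share this pattern. Its Dsg4 was also high (61.1 CPM), but its Dsg3 was 143.2 CPM and its wound keratins summed to 4208.9 CPM.

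The desmogleins were then compared with each other within a sample, which does not depend on library size. The log2 ratio of Dsg4 to Dsg3 was -5.71, -4.20, -2.64 and -5.88 in the control samples. It was -1.23, 0.30, -0.60 and -2.88 in the Z1C2Z samples. This ratio of CPM, which is not scaled for length, was highest in Z1C2Z-2, and Z1C2Z-5 fell below control-3. The mean log2 ratio differed by 3.51 (exact two-sided permutation p = 0.0571, 0.114 adjusted over 6 ratios). For the summed Dsg1 copies over Dsg3 the log2 ratio was 2.76 ± 0.37 in the control group and 3.61 ± 0.50 in the Z1C2Z group (SD, n = 4 each). The groups did not overlap for this ratio (exact permutation p = 0.0286, 0.114 adjusted). The margin was very small, with control-1 and Z1C2Z-1 both at 3.19 after rounding. For Dsg2 over Dsg3 the difference was 0.91 (exact permutation p = 0.0571, 0.114 adjusted). None of the 6 ratios passed the adjusted threshold. With no p lower than 0.0286 possible, at least 4 of them would have had to reach it.

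The make-up of the desmogleins was described as shares of their summed CPM per kb of exon. Dsg1a accounted for 49.5% ± 5.75 in the control group and 58.0% ± 1.68 in the Z1C2Z group (SD, n = 4 each). Dsg1b accounted for 38.0% ± 4.26 and 28.9% ± 2.97, with the reservation on shared reads. Dsg3 accounted for 9.33% ± 2.00 and 5.46% ± 1.76. The share of Dsg4 was 0.269%, 1.29%, 2.75% and 0.322% in the control samples. It was 5.86%, 8.35%, 6.15% and 1.89% in the Z1C2Z samples. On this scale Dsg4 thus overtook Dsg3 within the sum in Z1C2Z-2 and Z1C2Z-4, whereas in Z1C2Z-1 and Z1C2Z-5 Dsg3 remained the larger. Without scaling for exon length this held for Z1C2Z-2 (5.67% against 4.59%) but not for Z1C2Z-4 (4.12% against 6.25%). Dsg2 held 1.83% and 1.93% on average. Shares are parts of a whole and do not move independently, and no test was made on them. The summed level was 212.0 ± 34.9 CPM per kb in the control group and 270.0 ± 21.3 in the Z1C2Z group.

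**Figure D3:**
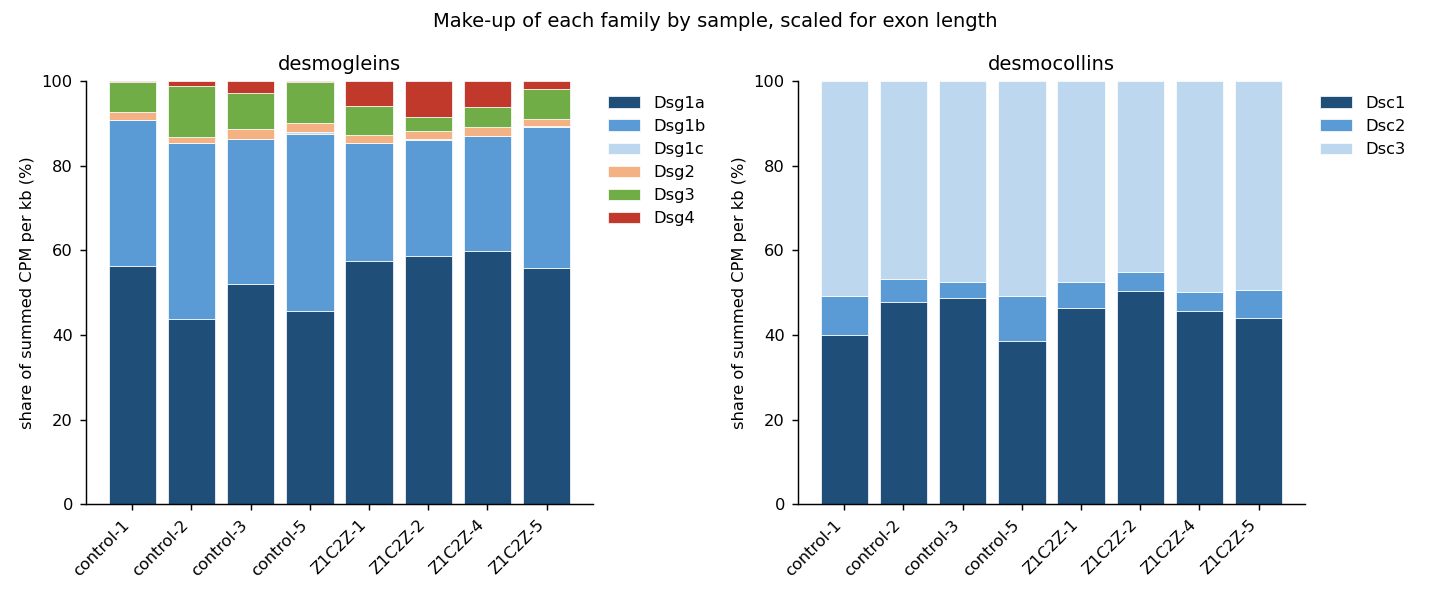
Share of each desmoglein (left) and each desmocollin (right) in the summed CPM per kb of its family, in percent, with 1 bar per sample. The Dsg4 segment is widest in Z1C2Z-2 (8.35%) and narrowest in control-1 (0.269%), and the Dsc2 segment runs from 3.92% in control-3 to 10.6% in control-5.

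The desmocollins pair with desmogleins across and along the membrane. Dsc1, the superficial desmocollin, measured 526.2, 684.2, 530.5 and 403.7 CPM in the control samples and 768.4, 652.8, 634.7 and 662.4 CPM in the Z1C2Z samples. Control-2 lay within the Z1C2Z range, and the other control samples lay below it. For Dsc1 the log2 fold change was 0.34 with a standard error of 0.15 (adjusted p = 0.182, edgeR, exact permutation p = 0.114). Dsc3, the desmocollin of the lower layers, measured 716.0, 715.1, 553.0 and 567.4 CPM in the control samples and 843.0, 622.8, 742.5 and 794.7 CPM in the Z1C2Z samples. Z1C2Z-2 fell within the control range, and the other Z1C2Z samples exceeded it. For Dsc3 the log2 fold change was 0.24 with a standard error of 0.13 (adjusted p = 0.283, edgeR, exact permutation p = 0.143).

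Dsc2, the most widely distributed desmocollin and the one of the heart, measured 123.8, 81.6, 44.7 and 116.1 CPM in the control samples and 104.7, 60.2, 64.5 and 104.7 CPM in the Z1C2Z samples. The Z1C2Z samples all fell inside the control range, which spanned 44.7 to 123.8 CPM. For Dsc2 the log2 fold change was -0.13 with a standard error of 0.32 (adjusted p = 0.815, edgeR), and its sign turned to 0.55 with a skeletal muscle score as covariate. Within the desmocollins Dsc3 held 48.9% ± 2.2 and 47.9% ± 2.19 of the summed CPM per kb (SD, n = 4 each). Dsc1 held 43.8% ± 5.19 and 46.7% ± 2.77, and Dsc2 held 7.25% ± 3.10 and 5.40% ± 1.13. The log2 ratio of Dsc1 to Dsc3 differed between groups by 0.13 (exact permutation p = 0.400), and that of Dsc2 to Dsc3 by -0.31 (exact permutation p = 0.371). The log2 ratio of Dsc1 to Dsc3 was between -0.49 and 0.07 over the 8 samples, so Dsc1 and Dsc3 stayed close to each other in each of them.

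Plakoglobin binds the tails of both cadherin families and can also replace beta-catenin in adherens junctions. Jup measured 365.8, 399.0, 333.2 and 429.2 CPM in the control samples and 437.6, 346.9, 458.9 and 449.6 CPM in the Z1C2Z samples. Z1C2Z-2 was within the control range and the other 3 Z1C2Z samples were above it. For Jup the log2 fold change was 0.15 with a standard error of 0.12 (381.8 ± 41.5 to 423.3 ± 51.7 CPM, SD, n = 4 each, adjusted p = 0.449, edgeR, exact permutation p = 0.257). The log2 ratio of Jup to desmoplakin was -2.17 ± 0.18 in the control group and -2.34 ± 0.14 in the Z1C2Z group (exact permutation p = 0.229). Dsc3 was the nearest of the other 9 genes to Jup in pattern, with a mean absolute difference of 0.129 in log2 CPM over 8 samples.

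**Figure D4:**
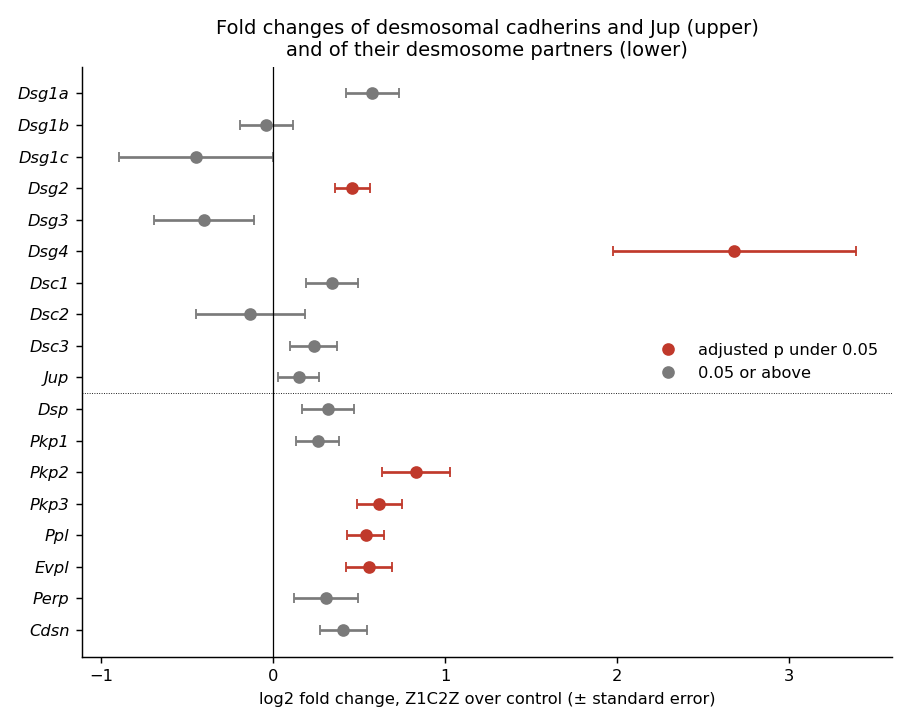
Log2 fold change of Z1C2Z over control with its standard error for the 10 genes (above the dotted line) and 8 desmosome partners (below it), with red points at an adjusted p under 0.05. Dsg4 stands at 2.68 with a wide bar, Dsg2 at 0.46 with a narrow one, and the 8 partners all lie between 0.26 and 0.83.

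Scaled for exon length, the 10 genes spanned a wide range of levels. In the control group the order was Dsc3 (118.0 ± 16.6 CPM per kb), Dsc1 (106.0 ± 22.8), Dsg1a (105.0 ± 24.0), Dsg1b (80.3 ± 15.2), Jup (59.3 ± 6.45), Dsg3 (19.8 ± 5.69), Dsc2 (17.3 ± 6.87), Dsg2 (3.79 ± 0.399), Dsg4 (2.32 ± 2.10) and Dsg1c (0.439 ± 0.302). Neighbours in this order lay further apart than their SDs together only between Jup and Dsg3 and between Dsc2 and Dsg2. In the Z1C2Z group Dsg1a came first at 157.0 ± 10.9 CPM per kb, followed within its spread by Dsc3 (139.0 ± 17.5). Dsg4, at 14.9 ± 6.83, moved up beside Dsc2 (15.8 ± 4.65), with Dsg3 between them, and these 3 did not differ beyond their spread. Dsg4 then stood above Dsg2 (5.22 ± 0.392) by more than their SDs together. Averaged over all samples, Dsg1a stood above 97.9% of 14856 genes with an exon length, Dsc3 above 97.8% and Dsc1 above 97.6%. Dsg4 stood above 63.9%, Dsg2 above 45.4% and Dsg1c above 8.23%.

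The 9 cadherin genes lie side by side on chromosome 18 in RefSeq's mouse annotation (assembly GRCm38.p6). Their order is Dsc3, Dsc2, Dsc1, Dsg1c, Dsg1a, Dsg1b, Dsg4, Dsg3, Dsg2. No other protein-coding gene lies between them, and non-coding genes were left out of this order. Jup lies on another chromosome. Dsg4 (log2 fold change 2.68) stands between Dsg1b (-0.04) and Dsg3 (-0.40), which did not pass the test. Its difference from Dsg3 within samples missed the threshold as given above, and its difference from Dsg1b was not tested. Cdh2, N-cadherin, which precedes Dsc3, had a log2 fold change of -0.68 (adjusted p = 0.0842, edgeR). Ttr, which follows Dsg2, was not among the tested genes.

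**Figure D5:**
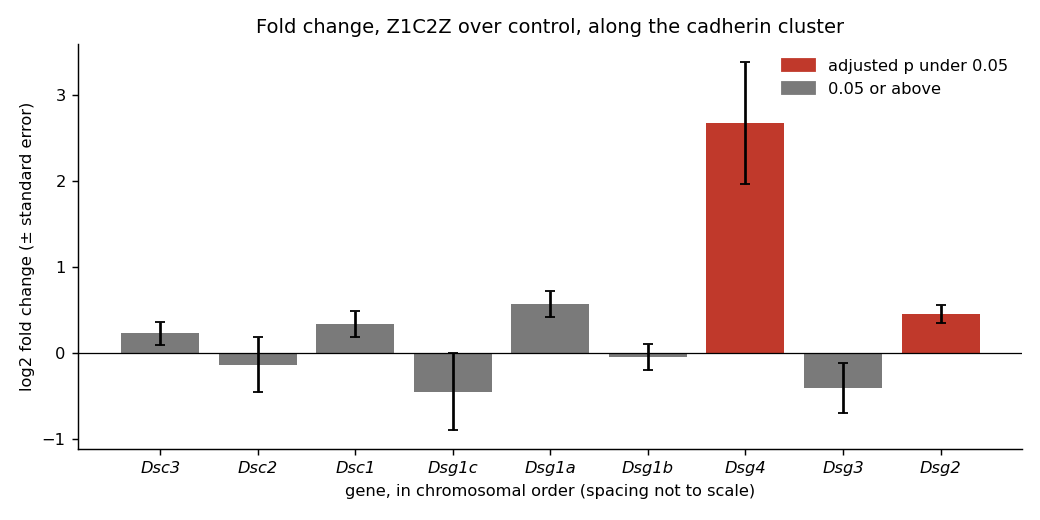
Log2 fold change of Z1C2Z over control (bars, with standard error) for the 9 cadherin genes in chromosomal order, not to scale, with red bars at an adjusted p under 0.05. The bar of Dsg4 (2.68) stands between the small bars of Dsg1b (-0.04) and Dsg3 (-0.40).

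Genes that complete the desmosome were described from a list of 8 partners. Of these, 4 rose and 0 fell, and all 8 had a log2 fold change over 0 (median 0.47, against 0.01 for all genes). Plakophilin 3 (Pkp3), which is found in all epidermal layers, measured between 116.2 and 129.7 CPM in the control group and between 155.2 and 228.1 CPM in the Z1C2Z group (log2 fold change 0.62, standard error 0.13, adjusted p = 0.0336, edgeR). Periplakin (Ppl, 0.54, adjusted p = 0.0302) and envoplakin (Evpl, 0.56, adjusted p = 0.0422) tie desmosomes into the cornified envelope. Plakophilin 2 (Pkp2), the plakophilin of the heart, had a log2 fold change of 0.83 (adjusted p = 0.0408) at a low level of 4.30 ± 0.42 and 7.65 ± 1.92 CPM (SD, n = 4 each). For these 4 genes the groups did not overlap. The log2 fold changes of the others were 0.32 for desmoplakin (Dsp, adjusted p = 0.199), 0.26 for plakophilin 1 (Pkp1, 0.204), 0.31 for the membrane protein Perp (0.307) and 0.41 for corneodesmosin (Cdsn, 0.0944). Leaving out 1 library took Pkp2 over the threshold for every library but Z1C2Z-5 and Evpl likewise (adjusted p up to 0.119 and 0.121). Pkp3 was over it without Z1C2Z-1, -2 or -4 or without control-2, -3 or -5 (up to 0.102), and Ppl without the same libraries other than control-3 (up to 0.0929). With a skeletal muscle score as covariate all 4 were over it (Pkp2 0.144, Pkp3 0.108, Ppl 0.110 and Evpl 0.197).

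The adherens junction, the actin-bound neighbour of the desmosome, was described from 8 genes. Of these, 2 rose and 0 fell, with a median log2 fold change of 0.32. They were P-cadherin (Cdh3, 0.63, adjusted p = 0.0302, edgeR), a cadherin of basal and hair matrix cells, and Nectin4 (0.67, adjusted p = 0.0299). E-cadherin (Cdh1) had a log2 fold change of 0.31 (adjusted p = 0.0838) and beta-catenin (Ctnnb1) of 0.21 (adjusted p = 0.158). For the catenins Ctnnd1 and Ctnna1 it was -0.04 (adjusted p = 0.841) and 0.02 (adjusted p = 0.885). Among 8 proteases and inhibitors that act on desmosomes 0 passed the test, with a median log2 fold change of -0.16. Klk7, a kallikrein that cuts corneodesmosin, had a log2 fold change of 0.25 (adjusted p = 0.274), and Spink5, an inhibitor of kallikreins, of -0.17 (adjusted p = 0.679).

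The 10 genes were also set against 11 genes common to keratinocytes. Of these, 4 rose and 0 fell. The 4 were the general epithelial genes St14 (log2 fold change 1.03), Lsr (0.92), Ap1m2 (0.66) and Esrp1 (0.52), named after their values were seen, while Krt5 (0.11), Krt14 (-0.19) and Trp63 (0.20) did not pass the test. The summed level of the 11 overlapped between groups, at 5103.4 to 7788.3 CPM and 5711.7 to 6986.8 CPM. The mean log2 CPM of the 11 was 7.67 ± 0.08 in the control group and 7.97 ± 0.13 in the Z1C2Z group (SD, n = 4 each, exact permutation p = 0.0286). Relative to that mean, Dsg4 differed by 2.76 on the log2 scale (exact permutation p = 0.0571) and Dsg3 by -0.74 (exact permutation p = 0.0571). Dsg1a differed by 0.30 (exact permutation p = 0.171), Dsg2 by 0.16 (0.286), Dsc1 by 0.06, Dsc3 by -0.06 and Jup by -0.15. The groups overlapped for all 10 genes on this scale, and the smallest adjusted p of any gene in the table was 0.093. Relative to 8 basal keratinocyte genes, whose mean differed by -0.02, the differences were 3.08 for Dsg4, 0.62 for Dsg1a, 0.48 for Dsg2, -0.43 for Dsg3, 0.26 for Dsc3 and 0.16 for Jup. On that scale the groups did not overlap for Dsg1a and Dsc3 (exact permutation p = 0.0286 each, 0.331 adjusted over all genes). The signs of Dsc3 and Jup thus depended on the reference.

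Some markers of other compartments, chiefly of skeletal muscle and fibroblasts, also passed the test. Their part in the values above was not tested, apart from the fits with a muscle score, which cannot be told apart from the group. Of 11 genes of the differentiated epidermis 1 rose. It was Krt2, at a very low mean level of 0.272 CPM in the control group and 2.62 CPM in the Z1C2Z group. The median log2 fold change of the 11 was 0.45 (Krt10 0.54, adjusted p = 0.257). Of 8 basal keratinocyte genes and of 4 wound keratins 0 passed the test, with medians of -0.13 and -0.67. Skeletal muscle genes had a median of -0.52, with 2 of 8 lower, and their summed level did not overlap between groups, at 3143.5 to 5750.0 CPM in the control group and 2698.8 to 2944.8 CPM in the Z1C2Z group. Of 6 fibroblast genes 2 fell (median -0.55), with summed levels of 54833.3 to 78014.6 CPM and 43053.8 to 60493.6 CPM. For 7 myeloid and 5 endothelial genes 0 passed the test, with medians of -0.37 and -0.80. Summed myeloid levels were 2099.6 to 3449.4 CPM and 1198.3 to 2291.1 CPM, and summed endothelial levels were 276.0 to 768.0 CPM and 227.0 to 448.0 CPM. No marker on these lists was at 0 in all samples.

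The remaining genes were compared with the table for likeness over the 8 samples. Dsg1a was closest to Fgfr2, a receptor of fibroblast growth factors (mean absolute difference 0.062 in log2 CPM), Camta1 (0.0642) and Ptpn21 (0.0871). Dsg3 was closest to Rin1 (0.125), Thsd7a (0.143) and Sbk2 (0.148). Dsc1 was closest to Zfp799 (0.0283), Gm10130 (0.0592) and Shprh (0.060), and Dsc3 to Tiam1 (0.0535), Tenm4 (0.0586) and Rad51c (0.0593). Dsc2 was closest to Hcn4 (0.102), Gjb6 (0.137), a connexin of skin, and Prima1 (0.145). Dsg1b was closest to Adamts5 (0.0572), Sgo2a (0.070) and Timeless (0.0761), Dsg1c to Lrrc3b (0.169), Lonrf3 (0.224) and Gjb6 (0.226), and Jup to Asf1b (0.063), Pias4 (0.0632) and Jade2 (0.0664).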

How the data were processed

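The deposited table of 18540 genes holds whole-number read counts, which the authors did not normalize. The aligner, counting program, genome build, annotation and strand setting are not given in the sources used here. The labels describe ribosomal RNA depletion and dUTP libraries. The table held 0 unused columns of per-sample values.

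The counts were fitted with edgeR 4.0.16 under R 4.3.3 (filterByExpr, 15147 genes; TMM; quasi-likelihood test; Benjamini-Hochberg adjustment), without covariates. Log2 CPM values used a prior count of 2. Single values and ratios were tested by exact two-sided permutation over 70 arrangements. Exon lengths, shared windows and overlaps came from GENCODE M21 (assembly GRCm38), and gene order from RefSeq, both matched by symbol.

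The 10 genes, the lists and the tests were chosen with earlier results of these data known. All 10 genes, all partners, up to 4 of the most abundant genes of each other list, every called adherens junction or protease gene and the 3 genes most alike to each of the 10 are named. Cdh2 and Ttr were named for their position, and Krt2 and 4 general epithelial genes after their values were seen.

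On simulated counts for 15147 genes, 186 of 200 genes changed by a log2 of 2 were recovered (93%), and 5 unchanged genes were called. Alternatives were RLE, upper quartile and total-count scaling, no filter, at least 10 counts in every sample, DESeq2 1.42.0, limma-voom (limma 3.58.1), a skeletal muscle score as covariate, the replicate number as a block, summed Dsg1 copies, a prior count of 0.5, another keratinocyte list and samples left out. No sequence is printed.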

Additional observations from a re-analysis of the deposited data

Results flagged for a closer look

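In a group of 4 samples, 1 that stood apart from the others was looked for among the values of the 10 genes, their partners and their ratios (48 comparisons, of which chance alone would mark about 1 in 20), and 2 were marked. In the Z1C2Z group, Jup in Z1C2Z-2 was 8.44 on the log2 CPM scale, while the other 3 samples lay between 8.77 and 8.84. In the control group, Pkp2 in control-3 was 2.32 on the log2 CPM scale, while the other 3 samples lay between 2.04 and 2.07.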

How the results depend on the processing

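The direction of Dsg4 held in all 20 alternatives (log2 fold change 1.73 to 3.50), with an adjusted p between 0.00544 and 0.352 that was under 0.05 in 9, and that of Dsg2 in all 20 (0.40 to 0.55, 0.0024 to 0.299, under 0.05 in 11). Of the 10 genes, 3 instead of 2 rose with upper quartile or total-count scaling, at least 10 counts in every sample or DESeq2. Only 1 rose with RLE size factors (Dsg4 at 0.0505), with the replicate block or with summed Dsg1 copies (Dsg4 at 0.0516). None (0) rose with a muscle score as covariate, without Z1C2Z-2 and -4, or without control-1 and -5, and 0 to 2 with 1 sample left out. With a fold over 2 the count was 0 in place of 1 with RLE size factors, summed Dsg1 copies or the muscle score. It was also 0 without Z1C2Z-2 and -4 or without control-1 and -5, and 0 to 1 with 1 sample left out. The block, upper quartile or total-count scaling, at least 10 counts in every sample and DESeq2 left it at 1. The count without overlap was 3 to 5.

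Over all genes 648 rose and 583 fell (326 and 189 with a fold over 2). DESeq2 gave 1243 and 1513 (490 and 345), the muscle score 24 and 95 (20 and 67), samples control-1 and -5 left out 4 and 9 (4 and 9), and Z1C2Z-2 and -4 left out 0 and 0, with 1980 genes at an unadjusted p under 0.05. Total counts alone gave 972 higher and 385 lower genes, and limma-voom gave 194 higher genes with a fold over 2. Leaving out 1 sample gave 0 to 886 higher and 0 to 868 lower genes (0 to 463 and 0 to 316), and the fits at 0, which lacked control-5, Z1C2Z-1, -2 or -4, had 3223, 4208, 3137 and 3100 genes at an unadjusted p under 0.05. The cause was not tested.

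The replicate numbers 1, 2 and 5 occur in both groups. Deviations of same-numbered samples correlated at -0.101, -0.0623 and 0.323. Those of differently numbered samples ran from -0.409 (control-3 with Z1C2Z-5) to 0.387 (control-3 with Z1C2Z-2), so the numbers were not taken as pairs. With the replicate block 301 genes rose and 253 fell, the adjusted p of Dsg2 was 0.153 and that of Dsg4 0.00544, and Pkp2, Pkp3, Ppl and Evpl were no longer called (0.160, 0.173, 0.170 and 0.237). Pkp2 was also lost with limma-voom (0.0558).

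Signs turned for Dsg1b, Dsg1c and Dsc2, none of which passed the test. The log2 fold change of Dsg1b was 0.05 with total counts, 0.06 with the muscle score, 0.11 without Z1C2Z-2 and -4, and -0.14 to 0.07 with 1 sample left out. That of Dsg1c was 0.30 with the muscle score, 0.54 without control-1 and -5, and -0.71 to 0.12 with 1 left out. That of Dsc2 was 0.55, 0.19 without Z1C2Z-2 and -4, 0.40 without control-1 and -5, and -0.36 to 0.04. Differences of mean log2 CPM with 1 sample left out were -0.15 to 0.07 for Dsg1b, -0.55 to 0.19 for Dsg1c and -0.38 to 0.11 for Dsc2. Relative to the basal list Dsc3 was at 0.26 and Jup at 0.16. Dsg1c had 26 to 124 counts per control sample. Shares depended on the scaling for exon length. Without it, Dsg1b held 29.1% and 22.1% of the desmogleins in the control and Z1C2Z groups, and Dsg3 held 12.6% and 7.34%.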
